A study of Homo sapiens with 12 samples.

Results

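The cytosolic ribosomal proteins of the large (60S) and small (40S) subunit were followed in human cells without mitochondrial DNA (ρ° cells) and in their parental ρ+ cells. The HG-U133A array reads a transcript through probe sets, each made of several short probes placed toward its 3′ end. A probe set was taken when its only annotated gene was an RPL or RPS gene, with pseudogenes and the RPS6K kinases left out. This gave 94 probe sets of 56 genes among the 22283 probe sets of the array, 56 for 35 genes of the 60S subunit and 38 for 21 genes of the 40S subunit. A further 57 probe sets list a ribosomal protein beside other genes, many of them small nucleolar RNAs that lie in its introns, and 16 ribosomal protein genes were found only there, so that RPL5, RPL17, RPL21 and RPS2 are not described. No single-gene probe set was found for RPLP0 or RPSA.

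RNA of 4 groups was measured, with 3 arrays a group, each called an independent biological replicate. They were A549 ρ° and A549 ρ+ cells, from an epithelial lung adenocarcinoma line, and 143BTK- ρ° and 143BTK- ρ+ cells, from an osteosarcoma line that lacks thymidine kinase. The ρ° cells had been exposed to 50 ng/ml ethidium bromide for 3 weeks and pooled without selecting clones. ρ° and ρ+ cells alike were grown in a high-glucose medium with 10% serum, 1 mM pyruvate and 50 µg/ml uridine, and were thawed from frozen stocks before the RNA was prepared. Each ρ° group is therefore 1 pooled derivative of its line, and its replicates cover the spread of that derivative only.

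Each cytosolic ribosome holds 1 copy of nearly every ribosomal protein, so the proteins are made in matched amounts, and excess subunits are degraded. The genes are among the most strongly transcribed in dividing cells. Their messengers characteristically begin with a terminal oligopyrimidine (TOP) tract, a C followed by further pyrimidines, through which the TOR kinase and the RNA-binding protein LARP1 control their translation. Arrays measure the messenger and not its translation.

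The transcript starts bear on what these genes share, and those of the 8 genes with a rise in A549, of RPL24, which passed the test between the lines, and of the paralog RPS27L are shown here. Each line gives 15 bases before the RefSeq start in lower case and then 15 bases from the start, in which capitals mark the unbroken pyrimidine run that opens with a C at the start (GRCh38.p14).
RPL22 (chr1:6199581-6199610, minus strand): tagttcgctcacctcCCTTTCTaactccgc
RPL35A (chr3:197950175-197950204, plus strand): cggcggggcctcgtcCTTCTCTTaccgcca
RPS25 (chr11:119018329-119018358, minus strand): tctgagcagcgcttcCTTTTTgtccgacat
RPL34 (chr4:108620561-108620590, plus strand): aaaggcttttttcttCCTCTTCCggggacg
RPL11 (chr1:23691791-23691820, plus strand): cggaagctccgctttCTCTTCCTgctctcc
RPL36 (chr19:5690280-5690309, plus strand): ccgcgcggcgccagcCCTTCCgccacggcc
RPL24 (chr3:101686704-101686733, minus strand): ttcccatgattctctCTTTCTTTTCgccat
RPL3 (chr22:39319609-39319638, minus strand): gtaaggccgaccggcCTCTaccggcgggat
RPL36AL (chr14:49620612-49620641, minus strand): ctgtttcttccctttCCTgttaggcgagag
RPS27L (chr15:63157463-63157492, minus strand): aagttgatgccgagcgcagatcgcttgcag
A TOP start was counted where a C at the start was followed by at least 4 bases that were each C or T, on the transcribed strand. By this rule RPL22, RPL35A, RPS25, RPL34, RPL11, RPL36 and RPL24 have one, with runs of 6 to 10 pyrimidines. RPL3 and RPL36AL have runs of 4 and 3 pyrimidines, and RPS27L has none. RPL11 and RPL34 each have a second annotated start without such a run. Of the 48 member genes with a start in the RefSeq table, 33 (68.75%) had a TOP start, against 5.14% of 27305 genes with a start in that table and 6.77% of the 9563 genes with a single-gene probe set on the array. Allowing the motif to begin within 10 bases of the start raised the share to 87.5% of the member genes and 38.4% of all genes. The paralogs RPL10L, RPL36AL, RPS27L and RPS4X were among the 15 member genes without a TOP start by the strict rule. RPL23A, RPL30, RPL37, RPL39L, RPL3L, RPL7, RPL8 and RPS15A were not looked at for this feature.

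Signals were computed with MAS5 and are linear, and the authors quantile-normalized them over the 6 arrays of each line separately. Levels of A549 and 143BTK- therefore cannot be set against each other, and the median signal was 31.4 in A549 and 27.6 in 143BTK-. Ribosomal protein probe sets stood at the top of the scale, with 24 of the 100 highest mean signals in A549 and 26 of those in 143BTK-. RPS23, a protein of the decoding centre, had the highest mean signal of the members in A549 (11330), and RPS10, at the head of the small subunit, had the highest in 143BTK- (11059 for 211542_x_at). RPL41, a very short peptide that bridges the subunits, reached 10459 in A549. On 5 of the 6 143BTK- arrays 1 member was at the highest value of the array.

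The probe sets fell into a bright and a dim class, a split made after the values were seen. In the bright class, with a mean signal of at least 500 in both lines, were 69 probe sets of 51 genes, at a median percentile of 99.3 in A549 and 99.5 in 143BTK-. The other 25 missed that limit in A549, in 143BTK- or in both and were dim, at a median percentile of 62.7 and 50.7 in these lines. Among them were RPL3L, a muscle paralog, at a mean of 9.42 in A549 and 7.57 in 143BTK-, and RPL10L, a testis paralog, at 58.6 and 37.9. Bright probe sets varied little, the highest of the 6 arrays being a median of 1.37 times the lowest in either line, against 2.55 times for the dim ones in A549 and 5.38 times in 143BTK-.

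In A549, 8 ribosomal protein probe sets rose in ρ° cells and none fell among the 85 that were kept for testing (limma, Benjamini-Hochberg adjusted p under 0.05 over 13147 probe sets). The kept probe sets were those of highest mean signal, 59% of the array in A549 and 63% in 143BTK-. Of all probe sets tested in A549, 5.59% rose and 5.17% fell, against 8 rises (9.41%) and 0 falls among the 85 members. Most members are bright, and of all 674 probe sets with a mean A549 signal of 1000 or more, 73 (10.8%) rose and 75 fell, so that the share of members that rose lies near that of probe sets of high signal. The members that rose were RPL22 (221726_at), RPL35A, RPS25, RPL34, RPL11, RPL36, RPL3 and RPL36AL. At an unadjusted p under 0.05, 21 members were higher and 0 lower, where 14% of all probe sets were higher and 13.3% lower. The 3 ρ° arrays were all above the 3 ρ+ arrays for 25 of the 85 and all below them for 4, against 15.8% and 16.1% of all probe sets tested. The median log2 change of the 85 was 0.13, with 66 above zero, and that of all 13147 was -0.0035. The members' median was 0.073 without ρ° B, 0.21 without ρ° C, and 0.047 without both ρ+ C and ρ° B.

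RPL22, a protein near the exit of the peptide tunnel that is dispensable for translation in general, had 221726_at signals of 1498.1, 1508.5 and 903.9 in A549 ρ° cells, against 505.0, 684.5 and 562.5 in A549 ρ+ cells. The groups did not overlap, and the log2 change was 1.13 (SE 0.22, adjusted p = 0.0124, limma). RPL35A, a 60S protein mutated in some patients with Diamond-Blackfan anaemia, had 2234.9, 2777.3 and 1748.7 in A549 ρ° cells, against 1200.9, 1205.2 and 853.4 in A549 ρ+ cells. Its lowest ρ° array stood well above its highest ρ+ array, at a log2 change of 1.05 (SE 0.20, adjusted p = 0.0119, limma). For RPS25, a protein of the 40S head required by several viral internal ribosome entry sites, the signals were 2560.9, 3044.0 and 2137.6 in A549 ρ° cells, against 1269.8, 1732.9 and 1120.8 in A549 ρ+ cells. This was the only 40S probe set that passed in A549, at a log2 change of 0.92 (SE 0.19, adjusted p = 0.0168, limma).

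RPL11 forms with RPL5 and 5S RNA the particle that can bind MDM2 when ribosome assembly is disturbed, and it is the only member of that particle measured here. It had 2643.1, 2956.2 and 1858.3 in A549 ρ° cells, against 1732.9, 1465.5 and 952.9 in A549 ρ+ cells (log2 change 0.86, SE 0.24, adjusted p = 0.0459, limma). The ρ° C array of RPL11 was close to its ρ+ A array, and the ρ+ C array was the lowest of all. RPL34 had 4527.9, 4566.3 and 3617.7 in A549 ρ° cells, against 3095.1, 2505.5 and 1600.9 in A549 ρ+ cells (0.86, SE 0.22, adjusted p = 0.0333, limma). RPL36 had 2407.9, 2538.9 and 2036.5 in A549 ρ° cells, against 1600.9, 1669.2 and 993.8 in A549 ρ+ cells (0.74, SE 0.21, adjusted p = 0.0444, limma). In RPL34 and RPL36 too, both of them 60S proteins, ρ+ C was the lowest array and the groups did not overlap.

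RPL3 lies beside the peptidyl transferase centre. Its 215963_x_at signals were 9878.7, 8000.2 and 7017.2 in A549 ρ° cells, against 5139.6, 5376.6 and 5402.1 in A549 ρ+ cells, so that the ρ+ arrays were close together and the ρ° arrays spread (0.63, SE 0.14, adjusted p = 0.0188, limma). RPL36AL, an autosomal paralog of the X-linked RPL36A, had 1855.0, 2194.9 and 1657.6 in A549 ρ° cells, against 1172.1, 1112.8 and 1443.5 in A549 ρ+ cells (0.61, SE 0.17, adjusted p = 0.0407, limma). Here ρ+ C was the highest of the ρ+ arrays. The 4 members whose ρ° arrays all lay below the ρ+ arrays in A549 were RPL30, RPL37A (201429_s_at), RPL39L and RPS16 (213890_x_at), and none of them passed (log2 changes -0.22, -0.06, -0.28 and -0.19).

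**Figure D1:**
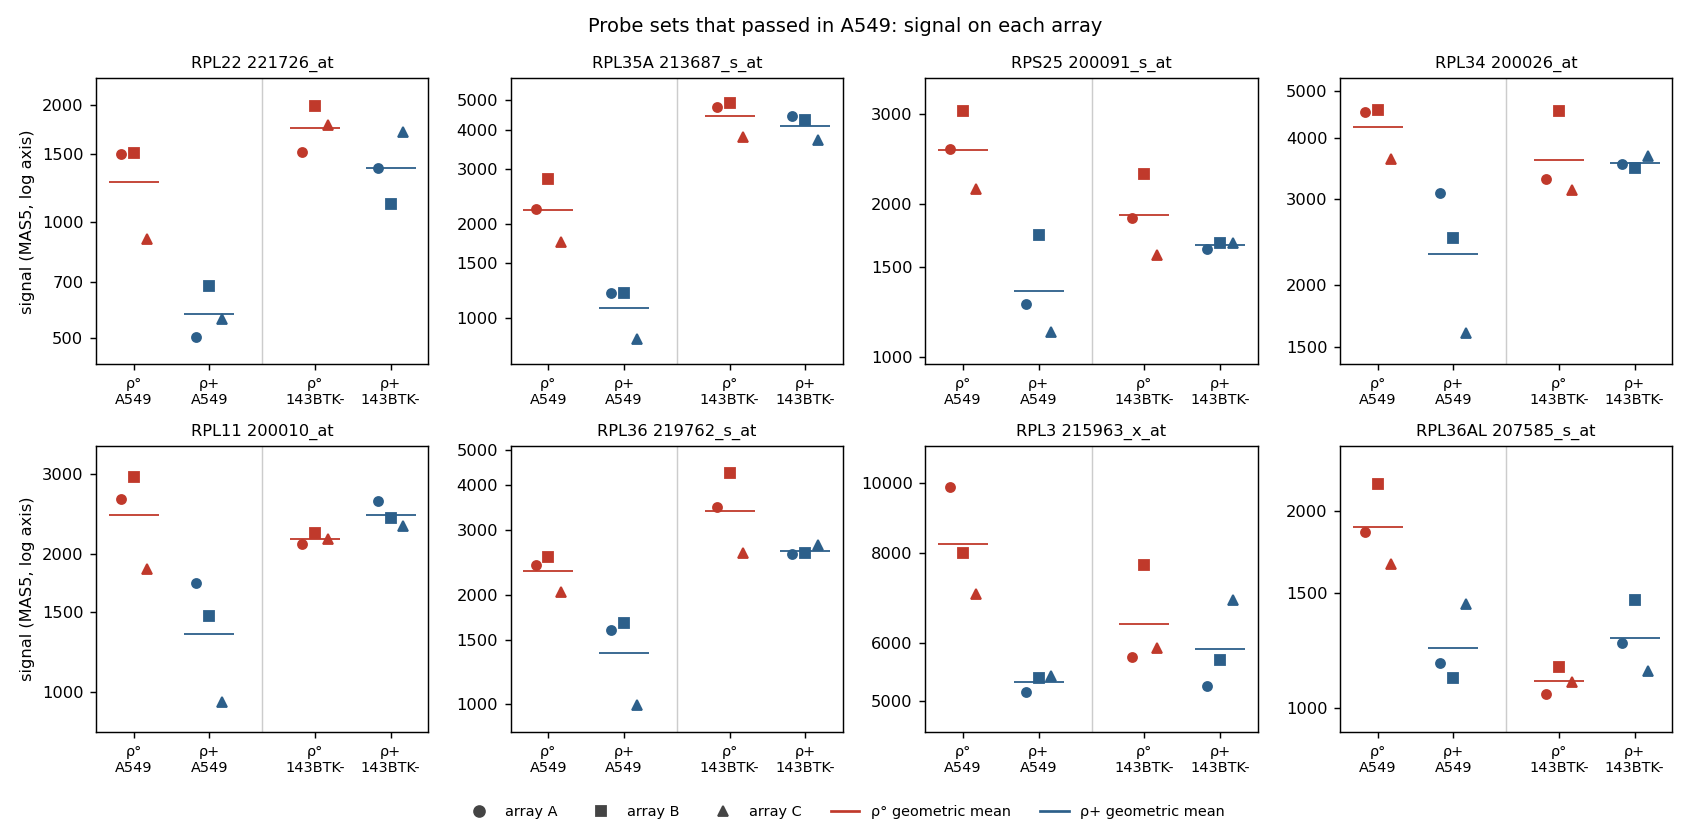
MAS5 signal (log axis) of the 8 ribosomal protein probe sets that passed in A549, on each of the 12 arrays, with the ρ° arrays of a line left of its ρ+ arrays, markers for arrays A, B and C and bars for geometric means. In A549 every ρ° point lies above every ρ+ point of the same probe set, as for RPL22 (903.9 to 1508.5 in ρ° and 505.0 to 684.5 in ρ+), and the lines were normalized apart, so their levels cannot be set against each other.

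The calls in A549 changed when arrays were left out. Such a fit also has fewer residual degrees of freedom, and the part of this in the lost calls was not tested. The calls over all probe sets in these fits are not given here. Whether the losses are particular to the members therefore cannot be read from the counts. Without the ρ° A array or without the ρ° B array, 0 of the 8 passed, while 3 of them passed without ρ+ B and 5 without ρ+ A. Without ρ° C, 7 of the 8 passed, without RPL36, and probe sets of RPL31 and RPL22 were added. Over the 17 alternatives tried, the log2 change of RPL22 (221726_at) lay between 0.98 and 1.38 (adjusted p between 0.00441 and 0.0707) and that of RPL35A between 0.72 and 1.22 (adjusted p between 0.00574 and 0.0605), whereas RPL11 ranged between 0.48 and 1.06 (adjusted p between 0.0118 and 0.162). ρ+ C was also the A549 array with the highest ratio of the 3′ to the 5′ control probe set of ACTB, 8.81 against 1.43 to 2.83 on the other A549 arrays. The 3′/5′ ratio of GAPDH was 0.881 to 1.31 on ρ° arrays and 1.07 to 1.34 on ρ+ arrays of A549. Without ρ+ C the count was again 8, with RPL10A in place of RPL11. With both ρ+ C and ρ° B left out, RPL22, RPL35A, RPL3 and RPL36AL still passed and RPL10A rose. The probe set 221943_x_at of RPL38 fell, at a log2 change of -0.74. It counts as dim only for its mean signal of 278.6 in 143BTK-, and its mean in A549 was 739.6. After centring on chromosome medians RPL34 and RPL36AL no longer passed.

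The change in A549 sat mainly in members of middle signal, a split made after the values were seen and given without a test. Of the 25 members with a mean A549 signal from 500 to 4000, 7 rose and 0 fell, at a median log2 change of 0.39. The 1143 other probe sets in that range had 119 rises and 130 falls, at a median of -0.02. Of the 47 members at 4000 or more, 1 (RPL3) rose, at a median of 0.08, where the 144 other probe sets of that brightness had 10 rises and 18 falls. Whether the probe sets of the brightest members respond less to a given difference in messenger was not tested. Summed over all 94 probe sets, ribosomal proteins took 8.95% to 10.0% of the total signal of an array in A549 ρ° cells and 8.34% to 9.01% in A549 ρ+ cells, ranges that overlap.

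In 143BTK-, 0 of the 86 ribosomal protein probe sets kept passed, and 0% of the 14038 probe sets tested there did (limma). At an unadjusted p under 0.05, 8 members were higher and 3 lower in 143BTK- ρ° cells, where 3.78% of all probe sets were higher and 4.6% lower. The arrays of the groups did not overlap for 8 members that were higher and 8 that were lower, against 7.36% and 7.47% of all probe sets. The median log2 change was 0.05 with 49 of 86 above zero, and 0.01 among the bright probe sets. Of the members that passed in A549, RPL35A had 4733.6, 4870.2 and 3786.0 in 143BTK- ρ° cells, against 4417.8, 4309.7 and 3699.5 in 143BTK- ρ+ cells, so that these groups overlapped. RPL34 likewise overlapped, with 3292.4, 4544.7 and 3128.5 in 143BTK- ρ° cells, against 3544.1, 3478.1 and 3667.7 in 143BTK- ρ+ cells. The members' share of the total signal was 8.92% to 9.62% in 143BTK- ρ° cells and 9.13% to 9.31% in 143BTK- ρ+ cells.

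The lowest unadjusted p in 143BTK- among members belonged to RPS27L, a paralog of RPS27 that is known as a p53 target. It had 827.4, 809.1 and 802.9 in 143BTK- ρ° cells, against 463.4, 464.5 and 635.2 in 143BTK- ρ+ cells, at a log2 change of 0.66 (SE 0.20, adjusted p = 0.488, limma). In A549, RPS27L had 3035.5, 3342.1 and 2538.9 in ρ° cells, against 3726.5, 3890.0 and 2269.2 in ρ+ cells. The groups were apart in 143BTK- and overlapped in A549, and the difference of the changes was -0.78 (SE 0.29, adjusted p = 0.185, limma). Its parent gene RPS27, which has a TOP start, changed by 0.16 in A549 and 0.05 in 143BTK- on the log2 scale, neither of which passed. RPL39L, a paralog of RPL39 found mainly in testis and in some tumours, had log2 changes of -0.28 in A549 and 0.49 in 143BTK-, and RPL39 itself 0.02 and 0.06.

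When the change was averaged over both lines in a fit of all 12 arrays, 3 members rose and 0 fell of the 85 kept in both lines (limma, 12184 probe sets, of which 1.95% rose and 1.72% fell). These were RPL22 (221726_at, log2 change 0.74, adjusted p = 0.0229), RPL35A (0.57, adjusted p = 0.0333) and RPS25 (0.56, adjusted p = 0.0385). All of them take most of this mean from A549: the log2 change in 143BTK- was 0.34 for RPL22 (221726_at), 0.10 for RPL35A and 0.19 for RPS25, none of which passed there. Without A549 ρ° A, A549 ρ° B or 143BTK- ρ+ B none of the 3 passed, and without A549 ρ+ A, 143BTK- ρ° A, 143BTK- ρ° B or 143BTK- ρ+ A 1 of them did. After centring on chromosome medians RPL35A and RPS25 did not pass, while RPS6 and RPL3 did. RPS18, a protein of the 40S head, was the only member that separated the groups in the same direction, ρ° higher, in A549 and in 143BTK-, as did 1.44% of all probe sets kept in both lines. Its signals were 7345.1, 8376.6 and 7318.5 in A549 ρ° cells, against 6802.7, 6965.4 and 5999.4 in A549 ρ+ cells. In 143BTK-, RPS18 had 8139.2, 7902.1 and 7523.4 in ρ° cells, against 6645.5, 6693.5 and 7429.3 in ρ+ cells. The mean log2 change of RPS18 was small, 0.20 (SE 0.07, adjusted p = 0.144, limma).

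**Figure D2:**
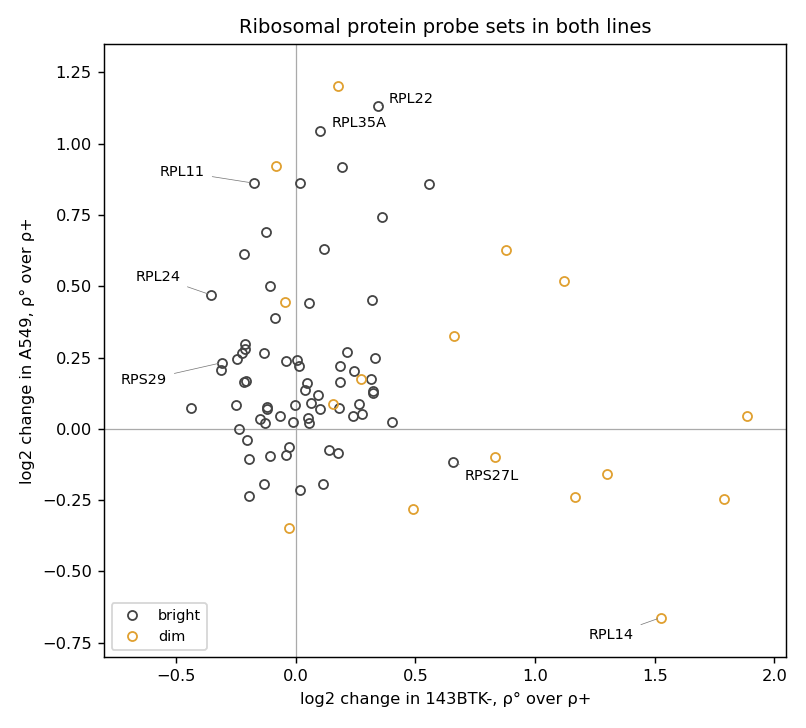
Log2 change of ρ° over ρ+ cells in 143BTK- (horizontal axis) and in A549 (vertical axis) for the 85 ribosomal protein probe sets kept in both lines, bright ones in black and dim ones in orange. The bright probe sets that passed in A549 stand high near the vertical zero line, as RPL35A at 1.05 in A549 and 0.10 in 143BTK-, while dim probe sets such as that of RPL14 lie to the right (1.53 in 143BTK- and -0.66 in A549).

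The test of the difference between the lines asks whether a member changed by another amount in A549 than in 143BTK-. It was passed by 1 member probe set, RPL24 (200013_at), in a comparison where 1.03% of all probe sets were higher in A549 and 0.878% lower. RPL24 joins the 60S subunit late, in the cytoplasm, and forms a bridge to the 40S subunit. It had 3959.8, 4232.7 and 4189.8 in A549 ρ° cells, against 3483.6, 3095.1 and 2454.4 in A549 ρ+ cells. In 143BTK-, its signals were 3974.0, 4214.7 and 3554.0 in ρ° cells, against 4968.8, 5094.5 and 4909.3 in ρ+ cells. The groups were apart in both lines and in opposite directions, with log2 changes of 0.47 in A549 and -0.35 in 143BTK- and a difference of 0.82 (SE 0.19, adjusted p = 0.0396, limma). The other probe set of RPL24 (214143_x_at) was lower in 143BTK- by a similar amount, with 3496.9, 3946.3 and 4851.3 in ρ° cells, against 5945.5, 5268.4 and 5332.8 in ρ+ cells, while in A549 its log2 change was 0.07. The difference of RPL24 (200013_at) passed when A549 ρ+ A, A549 ρ+ C or 143BTK- ρ° B was left out, and did not pass without any other single array.

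Opposite directions without overlap were also seen for RPL11 and for RPS29, a zinc-binding protein of the 40S head. RPS29 had 7318.5, 7585.3 and 7509.9 in A549 ρ° cells, against 6310.4, 6251.8 and 6521.6 in A549 ρ+ cells. In 143BTK- it had 5821.9, 6228.3 and 6280.7 in ρ° cells, against 7494.6, 7106.0 and 8114.5 in ρ+ cells. The difference of the changes was 0.54 for RPS29 (SE 0.14, adjusted p = 0.0565, limma), which missed the threshold. RPL11 had 2101.5, 2223.7 and 2155.6 in 143BTK- ρ° cells, against 2613.8, 2403.6 and 2309.3 in 143BTK- ρ+ cells, and its difference of 1.04 missed it too (SE 0.30, adjusted p = 0.0854, limma). Such opposite separation was found for 3 of the 85 members and for 251 of all 12184 probe sets (2.06%). RPL11, RPL24 and RPS29 lie on chromosomes 1, 3 and 14. The median log2 changes of all kept probe sets of these chromosomes were -0.15, -0.05 and -0.33 in 143BTK-. In A549 they were -0.03, 0.13 and 0.07. The part of such chromosome-wide shifts in the changes of these members was not tested.

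By subunit, 7 of the 51 kept 60S probe sets (13.7%) and 1 of the 34 kept 40S probe sets (2.94%) rose in A549. Among all probe sets tested there 5.59% rose, and among those with a mean A549 signal of 1000 or more 10.8% did. The 60S probe sets were also less bright in A549, at a median mean signal of 3305 against 5058 for the 40S ones. The part of signal level in these counts was not tested. The median log2 changes were close, 0.12 for the 60S and 0.13 for the 40S subunit, and no test of a difference between the subunits was made. Among bright probe sets alone the medians were 0.18 and 0.10. In 143BTK- the medians over all kept probe sets were 0.02 for the 60S and 0.05 for the 40S subunit. The acidic stalk, which recruits the GTPase factors, was represented by RPLP1 and RPLP2. RPLP1 was bright, with 6662.2, 7180.5 and 6714.8 in A549 ρ° cells, against 6691.8, 7926.5 and 7245.3 in A549 ρ+ cells, and did not pass in any fit. Of the 12 probe sets of tunnel exit proteins (RPL19, RPL22, RPL23A, RPL31, RPL35 and RPL39) 1 rose in A549 (8.33%). Of the 16 kept for the 40S head 1 did, RPS25 (6.25%). Both shares lie between that of all probe sets tested and that of probe sets of high signal. A list of genes mutated in Diamond-Blackfan anaemia, which does not hold all such genes, had 11 kept probe sets of 6 genes in A549. Of these 2 rose (18.2%), those of RPL11 and RPL35A, and the share over all such genes was not counted. The RPS19 probe sets had log2 changes of -0.04 and 0.02, which did not pass. RPS14, whose loss of 1 copy is known from a myelodysplastic syndrome, had log2 changes of 0.02 in A549 and -0.01 in 143BTK- on its bright probe set (208645_s_at).

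**Figure D3:**
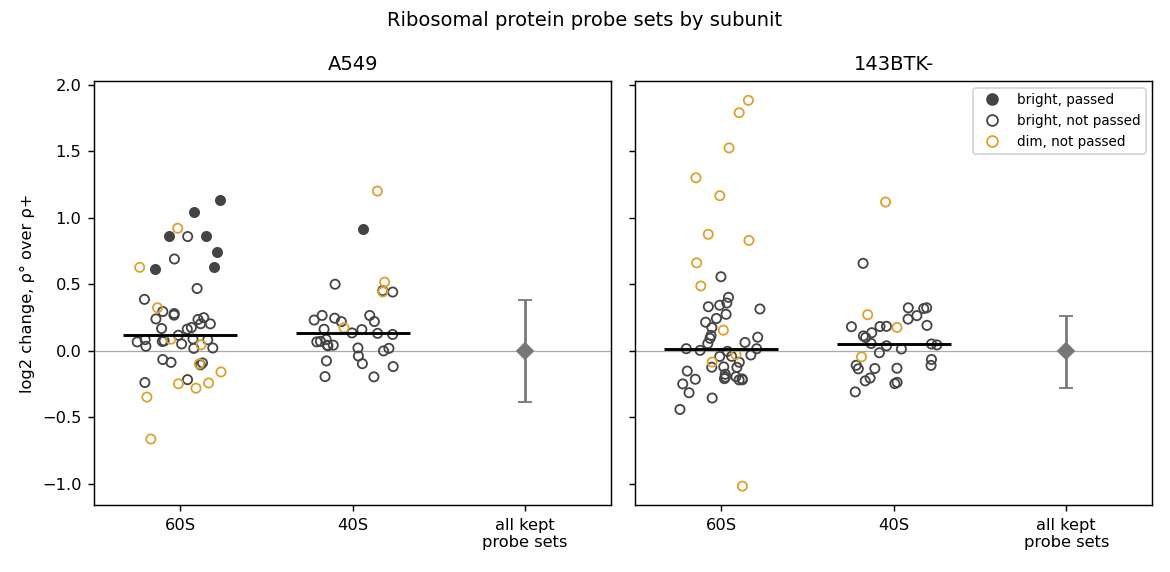
Log2 change of ρ° over ρ+ cells for kept ribosomal protein probe sets of the 60S and the 40S subunit in A549 (left) and 143BTK- (right), with filled points for those that passed, black for bright and orange for dim probe sets, bars for medians, and at the right the median and quartiles of all kept probe sets. In A549 7 of the 60S and 1 of the 40S probe sets are filled, in 143BTK- none, and the widest changes in 143BTK- belong to dim probe sets.

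Where a gene has several probe sets, they show how far its value depends on the probes. In A549, 14 of 20 genes with more than 1 kept probe set had all changes of the same sign, and in 143BTK- 9 of 20. The changes of 1 gene differed by over 0.5 on the log2 scale for RPL14, RPL22, RPL31 and RPS28 in A549, and for RPL14, RPL22, RPL31, RPL37A, RPL38 and RPS10 in 143BTK-. Among the 13 genes with more than 1 bright probe set the differences were smaller, at a median of 0.08 in A549 and 0.16 in 143BTK-. Agreement was close for the 2 RPS9 probe sets (0.45 and 0.44 in A549), the 2 of RPS16 (-0.19 each) and the 2 of RPS4X (0.07 and 0.09), none of which passed.

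RPL22 is the gene on which bright probe sets differed most. The 221726_at and 214042_s_at probe sets read it at a mean of 943.8 and 877.4 in A549, and 3 probe sets with the suffix _x_at, which marks probes that also match other sequences, read it at 3692 to 4755. The 214042_s_at signals were 1156.2, 1640.3 and 671.8 in A549 ρ° cells, against 546.6, 637.8 and 611.4 in A549 ρ+ cells. This is a second rise without overlap, but it did not pass (log2 change 0.86, SE 0.28, adjusted p = 0.0756, limma). On 208768_x_at the signals were 4189.8, 5739.2 and 3975.1 in A549 ρ° cells, against 3628.3, 3854.3 and 3810.7 in A549 ρ+ cells, a log2 change of 0.28 that did not pass. The remaining _x_at probe sets gave 0.20 and 0.17. In 143BTK- the 3 _x_at probe sets gave log2 changes of -0.21 to -0.31 and the other probe sets 0.34 and 0.56, none of which passed. Which transcripts the _x_at probes read beside RPL22 was not tested.

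**Figure D4:**
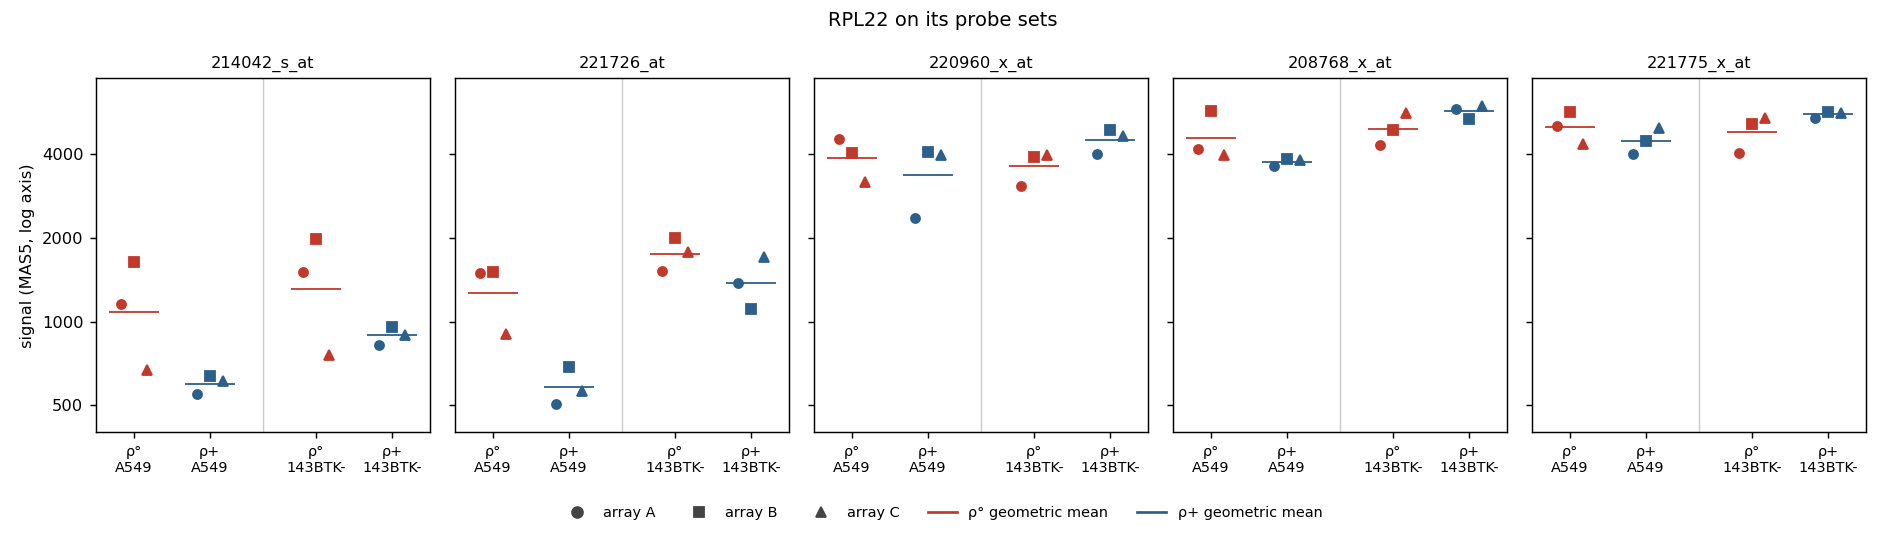
MAS5 signal (log axis) of RPL22 on its 5 probe sets, on each of the 12 arrays, with ρ° left of ρ+ in each line and bars for geometric means. In A549 the 2 probe sets at the left separate ρ° from ρ+ arrays (log2 changes 0.86 and 1.13), and the 3 _x_at probe sets lie at 2365 to 5739 with smaller changes.

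RPL14, a 60S protein, shows the same kind of divergence. Its 200074_s_at signals were 1452.4, 1588.7 and 1132.4 in A549 ρ° cells, against 1003.7, 1060.7 and 583.3 in A549 ρ+ cells, a log2 change of 0.69 that did not pass (adjusted p = 0.0921, limma). On 213588_x_at, the log2 change of RPL14 in A549 was 0.12. Its dim probe set 219138_at had 44.1, 53.4 and 8.0 in 143BTK- ρ° cells, against 11.5, 19.6 and 3.5 in 143BTK- ρ+ cells. Arrays of the same group differed there more than the groups did.

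That pattern recurred over the dim probe sets of 143BTK-. RPLP2 (200908_s_at) had 72.0, 66.1 and 5.0 in 143BTK- ρ° cells, against 8.5, 32.2 and 2.1 in 143BTK- ρ+ cells. RPL37A (214041_x_at) had 301.7, 372.2 and 51.9 in 143BTK- ρ° cells, against 49.0, 124.6 and 19.0 in 143BTK- ρ+ cells. RPL38 (221943_x_at) had 494.0, 650.8 and 67.4 in 143BTK- ρ° cells, against 134.9, 272.5 and 52.1 in 143BTK- ρ+ cells. In each of these the ρ° A and ρ° B arrays were the highest, ρ+ C was the lowest, and ρ° C lay among the ρ+ arrays. RPL27A (212044_s_at), RPL38 (202028_s_at) and RPS10 (214001_x_at) also had their highest signal in ρ° cells, and their log2 changes were 1.30, 0.83 and 1.12, none of which passed.

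Bright probe sets of the same genes did not follow. RPL38 (202029_x_at) had 5902.5, 5993.4 and 6069.9 in 143BTK- ρ° cells, against 5978.3, 6189.7 and 5753.1 in 143BTK- ρ+ cells. RPL37A (201429_s_at) had 8676.5, 8895.4 and 9050.6 in 143BTK- ρ° cells, against 9105.7, 9762.5 and 8371.5 in 143BTK- ρ+ cells. Their log2 changes were 0.00 and -0.03. Over the 17 dim probe sets kept in 143BTK-, the median log2 change was 0.66 and 0 passed, and 12 of them were highest on ρ° B. In A549, 12 of the 16 kept dim probe sets were highest on ρ° B, and their median change was 0.07. The median deviation from the mean of the 6 arrays was 1.09 on ρ° B and -0.68 on ρ° C in 143BTK-, and 0.68 and -0.48 on those arrays in A549. For bright probe sets it lay between -0.13 and 0.16 on every array, but these too followed the arrays in A549, where 38 of the 69 were highest on ρ° B and 31 were lowest on ρ+ C, and where their median change between the groups was 0.14. The ACTB 3′/5′ ratio of 143BTK- was 1.50 on ρ° B, 1.29 on ρ° A and 0.908 on ρ° C, against 0.861 to 1.26 on the ρ+ arrays, and its part in the pattern was not tested.

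**Figure D5:**
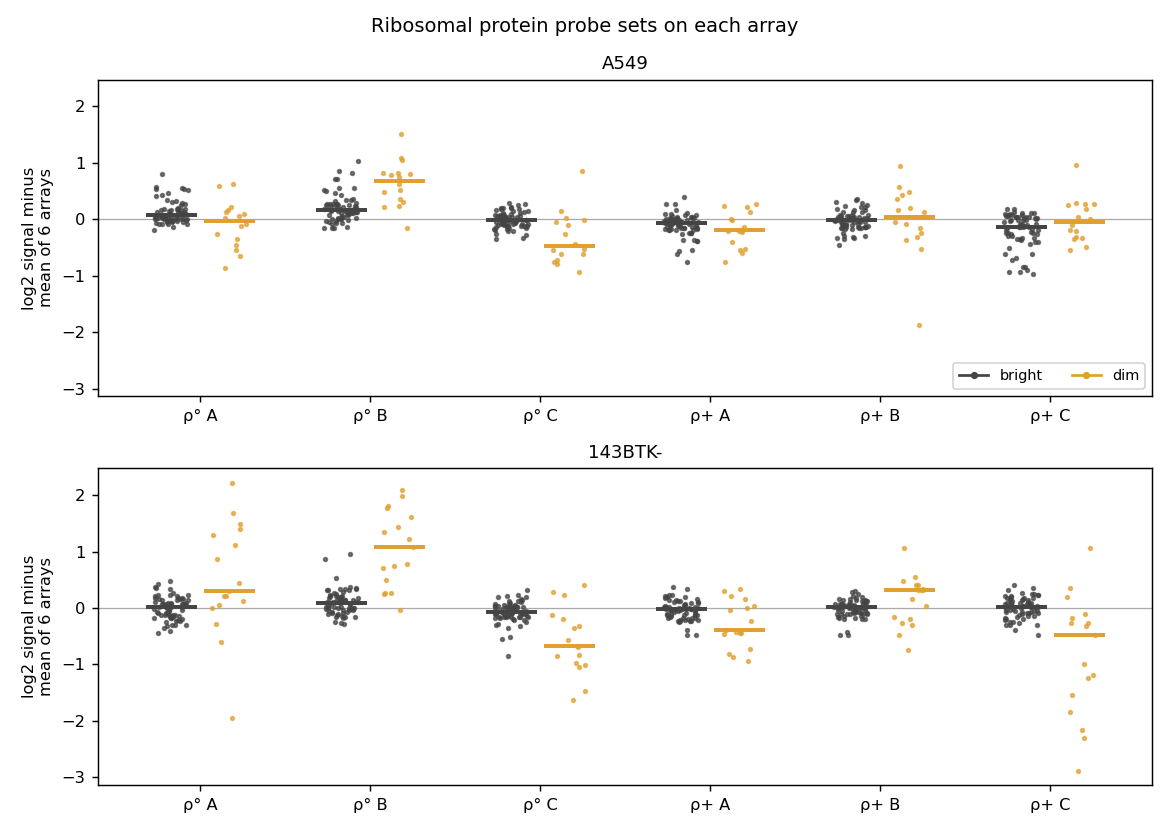
Log2 signal of each kept ribosomal protein probe set minus its mean over the 6 arrays of the line, by array, in A549 (top) and 143BTK- (bottom), with bright probe sets in black, dim ones in orange and bars for medians. Medians of bright probe sets lie between -0.13 and 0.16, and those of dim ones are high on ρ° B (0.68 in A549 and 1.09 in 143BTK-) and low on ρ° C (-0.48 and -0.68).

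Dim probe sets also held the widest values of A549. RPS28 (208903_at) had 38.2, 59.2 and 61.7 in A549 ρ° cells, against 29.8, 9.3 and 41.4 in A549 ρ+ cells, which overlapped at a log2 change of 1.20 (adjusted p = 0.167, limma). The bright RPS28 probe set (208904_s_at) had a log2 change of 0.13 there. RPL31 (200962_at) had 84.2, 96.1 and 53.3 in A549 ρ° cells, against 32.6, 44.4 and 43.8 in A549 ρ+ cells, apart but not passed (0.92, adjusted p = 0.077, limma). The main RPL31 probe set (200963_x_at), at a mean of 6421, had changes of 0.25 in A549 and 0.33 in 143BTK-. Among the lowest values in A549 were RPL18 (214335_at, -0.35) and RPLP2 (200908_s_at, -0.25), and in 143BTK- RPL37A (213459_at, -1.02), all of them dim and none passed.

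The 57 probe sets that list a ribosomal protein beside other genes were counted in the same way. Of 54 kept in A549, 8 rose (14.8%) and 0 fell, at a median log2 change of 0.12. Among all probe sets tested there 5.59% rose and 5.17% fell, and 10.8% rose among those with a mean signal of 1000 or more. Of 53 kept in 143BTK- 0 passed, at a median of 0.00. In the mean change 1 of 53 rose (1.89%, against 1.95% of all probe sets) and 0 fell. They may read several genes, so no gene is named from them.

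Other genes of protein synthesis did not all go the same way. Their counts stand beside 5.59% rises and 5.17% falls among all probe sets tested in A549. In the mean change these shares were 1.95% and 1.72%. Messengers outside the ribosome that are known for a TOP start were represented by 31 kept probe sets of 12 genes in A549. Of these 8 rose (25.8%) and 0 fell, at a median of 0.24. The initiation factor EIF4B rose most, by 1.41 (211937_at, adjusted p = 0.00334, limma), followed by NAP1L1, a histone chaperone, at 0.96 (208752_x_at, adjusted p = 0.00426, limma), the elongation factor EEF2 at 0.84 (204102_s_at, adjusted p = 0.0266, limma) and TPT1 at 0.48 (216520_s_at, adjusted p = 0.0291, limma). In the mean change of both lines 7 of these 31 passed (22.6%), all higher and from the same 4 genes. Translation factors, a list that holds EIF4B and EEF2 too, had 5 rises and 10 falls among 78 probe sets in A549, at a median of 0.01. The share of rises, 6.41%, lies near that of all probe sets, while the 10 falls make a larger share than the 5.17% of all probe sets. EIF2S3, a subunit of the factor that brings the initiator tRNA, rose by 2.42 (adjusted p = 0.0413, limma), and its partner EIF2S1 was lower (-1.29, adjusted p = 0.00324, limma). The other falls were of the termination factor GSPT1 (215438_x_at, -1.48), the initiation factor subunits EIF3B (203462_x_at, -1.01) and EIF3K, and EIF4G2. GSPT1, EIF3B and EIF3K each fell on more than 1 probe set, so the falls come from few genes. In the mean change 5 of the 78 translation factor probe sets rose (6.41%) and 4 fell, both larger shares than those of all probe sets. Of 76 probe sets of ribosome assembly factors, 3 rose (3.95%) and 7 fell in A549, at a median of -0.20. Those that fell included TCOF1, which serves rRNA transcription (-1.53, adjusted p = 0.0198, limma), and TSR1, a factor of 40S maturation (221987_s_at, -1.16, adjusted p = 0.0228, limma), while NPM1 (221691_x_at) rose by 0.79. In the mean change 2 assembly probe sets passed, both of TSR1 and both lower.

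Mitochondrial ribosomal proteins, which serve the translation of mtDNA, had 1 rise (1.69%) and 3 falls among 59 probe sets in A549, at a median of -0.21. In the mean change they had 0 calls of 59. Among all probe sets tested in A549, 5.59% rose and 5.17% fell, and the share of falls among the 59 lies near the latter. By other measures more of them were lower. The ρ° arrays were all below the ρ+ arrays for 19 of the 59 and all above for 4, against 16.1% and 15.8% of all probe sets. At an unadjusted p under 0.05 (limma), 12 were lower and 3 higher, where 13.3% of all probe sets were lower and 14% higher. Of 17 probe sets for the TOR pathway and LARP proteins, 3 fell in A549, 2 of RHEB (-0.74 and -0.75) and 1 of EIF4EBP1 (-0.71), and 0 rose. POLR1D, a subunit shared by RNA polymerases I and III, rose by 0.74 in A549 (adjusted p = 0.0225, limma) and was the only call of 10 RNA polymerase I probe sets.

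The lines matched their labels only in part. In A549, KRT8 and KRT18 stood at percentiles 98.5 and 99.3, but EPCAM at 10.4. The same genes stood at 72.9, 99.2 and 54.2 in 143BTK-, so KRT18 and EPCAM did not mark A549. The rest of the epithelial list stood higher in A549, as KRT8 did. KRT7, CDH1, CEACAM6 and KRT19 were at 98.2, 84.3, 83.1 and 54.5 there, against 42.7, 12.4, 46.7 and 1.9 in 143BTK-. In 143BTK-, SPARC (95.4) and CDH2 (89.0) were high, COL1A1 (70.8) and TWIST1 (66.1) less so, and COL1A2 (34.7) and RUNX2 (34.3) were not. The epithelial list moved with mtDNA state in A549: 6 of its 7 kept probe sets fell, and its summed signal over 10 probe sets was 4971 to 8690.3 on ρ° arrays and 14807 to 17045 on ρ+ arrays. Markers of blood and endothelial cells summed to 79.8 to 141.7 on ρ° arrays and 121.1 to 131.3 on ρ+ arrays of A549 over 9 probe sets. The mesenchymal list, summed over 14 probe sets, was 1430.5 to 1962.1 on ρ° arrays and 1125 to 1317.5 on ρ+ arrays of 143BTK-, and 224.1 to 273.4 on ρ° arrays and 317.3 to 363.6 on ρ+ arrays of A549, without overlap in either line. The A549 sums come from low signals: 5 of the 14 probe sets were kept there, and the highest mean was 79.15 (COL1A1). The part of these shifts in the ribosomal protein values was not tested. In bulk RNA, fewer cells of a kind and less messenger per cell cannot be told apart.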

How the data were processed

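Signals of 12 HG-U133A arrays were analysed. The deposited intensity values are MAS5 signals per probe set, which the authors quantile-normalized over the 6 arrays of each line. Gene names come from the array's annotation table. Where it gives 1 gene (19071 probe sets), 19059 were found in the RefSeq table (GRCh38.p14) that also gave the transcript starts.

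The authors removed probe sets called Absent and tested with a power law error model fitted to arrays not used here. In its place limma 3.58.1 (R 4.3.3) was fitted to log2 signals with an intensity trend, after keeping the probe sets of highest mean log2 signal, 59% in A549 and 63% in 143BTK-. P-values were adjusted over all kept probe sets by the Benjamini-Hochberg method, and 0.05 was the limit. Each line was fitted alone, with 4 residual degrees of freedom. The mean change and the difference between lines came from a fit of all 12 arrays, with 8. Group and replicate letter were read from the sample labels. P-values cover the spread among arrays of 1 pooled derivative. The authors call these biological replicates and describe them as independent RNA extractions. With 3 arrays a group, which limits the precision, an exact permutation test within a line cannot go below 0.1 and was not used.

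Named probe sets were those that passed a test, the 5 highest and 5 lowest changes in each line, the 5 largest differences between lines in each direction, genes whose probe sets differed by over 0.5, the 3 brightest members of each line, the paralogs, the acidic stalk, the 5S particle, and RPL17, RPL21, RPL31, RPL36 and RPS14, which the study selected on these samples. In other gene lists, at most 10 that passed were eligible. Members and lists were chosen with earlier results of these data known. Alternatives were 2 other normalizations, 16 or 64 added before log2, no filter, a mean signal of at least 100, no trend, the replicate letter as a block, chromosome centring, 1 probe set per gene, no _x_at probe sets, and arrays left out. Leaving out A549 ρ+ C with ρ° B, leaving out 143BTK- ρ° A with ρ° B, and bright members alone were added after seeing the data. The fit was tested on simulated data. Figures were drawn with matplotlib 3.10.9.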

Additional observations from a re-analysis of the deposited data

Results flagged for a closer look

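Of the 85 members kept in both lines, 3 probe sets were picked out because every ρ° array moved one way in A549 and the other way in 143BTK-. The same held for 251 of all 12184 probe sets (2.06%), so the count of members is near that share. RPL11 (200010_at) was higher in A549 ρ° cells and lower in 143BTK- ρ° cells, and the difference of its log2 changes was 1.04 (adjusted p = 0.0854, limma). RPL24 (200013_at) differed by 0.82 (adjusted p = 0.0396, limma), the only one of these to pass. RPS29 (201094_at) differed by 0.54 (adjusted p = 0.0565, limma). The medians of chromosomes 1 and 14, which hold RPL11 and RPS29, were also below zero in 143BTK- (-0.15 and -0.33).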

How the results depend on the processing

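The 8 members that rose in A549 kept their direction under all alternatives. Their count was 3 with no filter, 0 with no intensity trend, and 0 to 9 with 1 array left out. The 3 members of the mean change became 1 with no filter, 5 at a mean signal of at least 100, 0 with no trend, 1 without both ρ+ C arrays, 0 without A549 ρ+ C and ρ° B, 0 without 143BTK- ρ° A and ρ° B, and 0 to 5 with 1 array left out (0 without A549 ρ° A, A549 ρ° B or 143BTK- ρ+ B). The count of members that differed between the lines, 1 (RPL24), became 2 with 64 added before log2, 0 with no filter, 2 at a mean signal of at least 100, 0 with no trend, 2 without both ρ+ C arrays (RPL36AL and RPS27L, without RPL24), 0 after centring on chromosome medians, 0 with 1 probe set per gene, 0 without A549 ρ+ C and ρ° B, 0 without 143BTK- ρ° A and ρ° B, and 0 to 3 with 1 array left out (0 without A549 ρ° A, ρ° B or ρ+ B, or 143BTK- ρ° A, ρ+ A, ρ+ B or ρ+ C). With the letter as a replicate block, 8 members passed in A549 (RPL14 in place of RPL36AL), 5 in the mean change, and 2 in the difference (RPL11 and RPL35A, without RPL24). Same-letter deviations correlated at 0.05 to 0.10 in A549 and -0.10 to 0.36 in 143BTK-, so the letters were not taken as pairs. In A549, though not in 143BTK-, each ρ° array correlated best with its own letter. The A549 median change of 0.13 ranged between 0.073 and 0.21 with 1 array left out. The 143BTK- median change of 0.05 became -0.0777 without ρ° A and ρ° B, and ranged between -0.023 and 0.14 with 1 array left out. No member passed in 143BTK- under any alternative. The cause of these shifts was not tested, and the counts of members are not set beside those of all probe sets under the same alternatives. Arrays of 1 group differed most for dim probe sets, so changes of these are the least precise.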
